A study of Mus musculus with 16 samples.

Results

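The Hox genes of the mouse colon were described in 16 ApcMin/+ mice, which carry a germline truncating mutation of the tumour suppressor gene Apc and develop intestinal tumours. The array holds 45 probes for all 39 mouse Hox genes of clusters A to D among 34947 genes, and members were taken by gene symbol alone, without regard to their values. The RNA came from non-tumour colon of 6 mice given dextran sulphate sodium (DSS) at 1.5% in drinking water for 3 days and then 5-aminosalicylic acid (5-ASA mice), 6 mice given the same DSS but no 5-ASA (Control mice), and 4 mice given water alone (Sham mice), all sampled on day 28. DSS injures the colon lining, and 5-ASA (mesalazine) is given to people with ulcerative colitis against inflammation. The labels differ on dosing: the treatment text has 5-ASA or saline given into the colorectum for 28 days, while the sample descriptions have 5-ASA in drinking water, or water alone, for 25 days after DSS. All 3 groups carry the Apc mutation, the ages are not given, and the labels do not say from which stretch of the colon each piece was cut. The labels call the arrays of a group biological replicates.

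Hox genes encode homeodomain transcription factors that lie in 4 clusters and are expressed along the body axis in the order in which they lie on the chromosome, low paralogue numbers toward the head and high numbers toward the tail. The gut keeps such an order, and the genes numbered 13 mark its hind end: Hoxa13 and Hoxd13 act in the hindgut and its mesenchyme, and Hoxb13 is expressed in the distal colon, the rectum and the prostate. Homeodomain partners of the Meis and Pbx families bind DNA together with Hox proteins, retinoic acid and the caudal factors Cdx1 and Cdx2 act upstream of Hox genes, and Polycomb complexes hold silent Hox genes in place.

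Each value below is the log2 brightness of the brightest probe of a gene, relative to the 75th percentile of its array, so a difference of 1 between mice is a doubling; levels of different probes cannot be set against each other. The first 30 bases of the 60-base probes are shown for 9 genes that carry the results, since it is these stretches whose binding was read. Their positions are on build mm9, and the sequences run 5′ to 3′ on the strand of the gene. They are Hoxb13 at chr11:96057854-96057913, Hoxd13 at chr2:74509248-74509307, Hoxd12 at chr2:74515664-74515723, Hoxd11 at chr2:74525014-74525073 and Hoxd10 at chr2:74532280-74532339, all on the plus strand. Hoxa13 at chr6:52208980-52209039 and Hoxa11 at chr6:52192107-52192166 are on the minus strand, and Hoxb5 at chr11:96167130-96167189 and Hoxb8 at chr11:96146576-96146635 are on the plus strand.
Hoxb13: aaatcgctttcatgagttgagctgattgtg
Hoxd13: aaatgttgcgtatttatgggactgaaagat
Hoxd12: cctgtgctaacagttgccgtttatgttttg
Hoxd11: attaaacggcttttgtttaaaacagattag
Hoxd10: gcgagcgccgcctagagatcagtaagagcg
Hoxa13: acaaattcattaccaaggacaaacggagga
Hoxa11: tgaatgtatgcttcatacagggatggtgtt
Hoxb5: taggccccacaaggcctagtctggaagcgt
Hoxb8: ttctgttgtctgcgcctgaaaagggcggaa

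The 250 bases before the start of a gene were also searched, in RefSeq sequence of build GRCm38.p6, for 2 short words: TTTATNG, a core that caudal factors bind, and TTTACGA, a core that the Hox proteins of the highest paralogue numbers bind. Both strands were read, and the words found in the windows shown do not overlap. RefSeq windows were matched by symbol for 22 Hox genes (24 windows). TTTATNG was in 2 of these 24 windows, Hoxb8 and Hoxd4, against 9.81% of all 32851 windows, and TTTACGA was in that of Hoxb8 alone, against 0.478%. The window of Hoxb8 (chr11:96281655-96281904, plus strand) held TTTATNG at 199, 120 and 110 bases before the start and TTTACGA on the minus strand at 176 bases. The window of Hoxd4 (chr2:74721728-74721977, plus strand) held TTTATNG once, at 45 bases, and that of Hoxd13 (chr2:74667975-74668224, plus strand) held neither word. These windows are shown because Hoxb8 and Hoxd13 are among the 5 Hox genes with the widest spread between mice and Hoxd4 had a low unadjusted p in 2 comparisons; capitals mark the words found, which are a description of these letters only.
Hoxb8 promoter: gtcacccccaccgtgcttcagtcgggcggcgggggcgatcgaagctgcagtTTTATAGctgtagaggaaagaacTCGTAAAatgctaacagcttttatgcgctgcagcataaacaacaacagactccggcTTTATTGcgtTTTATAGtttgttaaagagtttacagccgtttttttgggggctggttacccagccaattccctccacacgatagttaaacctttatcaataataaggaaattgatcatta
Hoxd4 promoter: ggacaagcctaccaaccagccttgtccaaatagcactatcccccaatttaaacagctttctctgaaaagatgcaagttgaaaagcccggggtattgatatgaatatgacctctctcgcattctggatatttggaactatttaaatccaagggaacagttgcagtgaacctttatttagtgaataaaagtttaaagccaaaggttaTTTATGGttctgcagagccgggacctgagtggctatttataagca
Hoxd13 promoter: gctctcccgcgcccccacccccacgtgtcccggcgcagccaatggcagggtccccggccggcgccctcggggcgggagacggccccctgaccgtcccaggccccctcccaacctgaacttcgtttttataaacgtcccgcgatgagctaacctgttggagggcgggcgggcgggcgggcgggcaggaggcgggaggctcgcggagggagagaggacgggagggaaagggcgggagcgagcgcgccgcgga

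The arrays set the limits of these data. They lay on 2 slides, each with 2 rows of 4 arrays. The 4 Sham arrays lay in row 1 together with Control 1, 2, 4 and 5, and the 6 5-ASA arrays in row 2 together with Control 3 and 6, so 5-ASA and Sham mice shared no row. In row 2, 53.0 to 57.7% of spots were well above background, and in row 1 59.8 to 65.2%. No spot was saturated. All 10 epithelial markers (Epcam, Cdh1, Vil1 and others) were well above background on all 16 arrays, as were all 10 smooth muscle markers. Of the 10 markers of stratified squamous epithelium, which lines the anal canal, 5 were well above background on all 16 arrays. Of the 5 prostate markers, of which Spink3 had no probe under that symbol, 1 was well above background on at least 4 arrays, and none on all 16. In such bulk tissue, fewer cells of a type and less RNA per cell cannot be told apart.

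Detection differed by cluster. Of the 39 Hox genes, 29 passed the limit for testing, a signal well above background in 4 or more mice. Over the whole array 24541 of 34947 genes passed it, a share of like size. Of the 29, 21 were on all 16 arrays, and 6 of the 39 were on none. The HoxA cluster was read in full, with 11 of 11 genes on all 16 arrays. The HoxB cluster had 9 of 10 genes past this limit, and only Hoxb1, an anterior gene of the hindbrain, was on no array.

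The HoxC cluster was the dim one, with 2 of 9 genes past the limit: Hoxc4 on 15 arrays and Hoxc6 on 10. Hoxc8, Hoxc9, Hoxc10 and Hoxc11 were on none, and Hoxc5, Hoxc12 and Hoxc13 were on 2 arrays each. The 2 bright Hoxc13 values were those of 5-ASA 3 and Control 6, at -2.35 and -2.83, against at most -4.11 in any other mouse. Of the 9 HoxD genes 7 passed: Hoxd4 and Hoxd13 were on all 16 arrays, Hoxd8 on 15, Hoxd11 on 12, and Hoxd9, Hoxd10 and Hoxd12 on 8 each. Hoxd3 was on 2 and Hoxd1 on none.

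Detection also differed by mouse. Between 24 and 30 of the 39 genes were well above background in a mouse, with 24 in 5-ASA 1 and 30 in Control 5 and Sham 3. Hoxd9 was well above background in 0 of 6 5-ASA, 4 of 6 Control and 4 of 4 Sham mice. Its 8 detected arrays were thus all of Sham and the 4 Control arrays of row 1, and none in row 2, the row with fewer spots above background. Within the Control group it was thus detected in 4 of 4 mice of row 1 and 0 of 2 of row 2; between 5-ASA and Sham mice, row and group cannot be told apart. With the weaker flag of a signal above background by a spot-level test, 34 of 39 genes passed, 6 of 9 in HoxC.

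**Figure D1:**
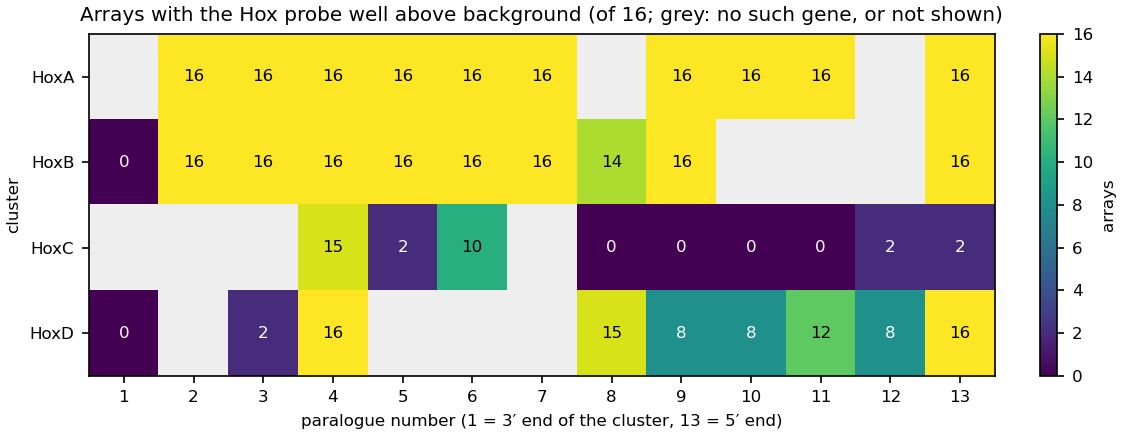
Number of the 16 arrays on which each Hox gene was well above background, by cluster (rows) and paralogue number (columns, from the 3′ to the 5′ end of a cluster); grey squares are positions with no gene or not shown. The HoxA squares shown are at 16, most of HoxC is at 0 or 2, and Hoxa13, Hoxb13 and Hoxd13 are at 16 while Hoxc13 is at 2.

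The Hox genes varied widely from mouse to mouse within a group. Their median within-group SD was 0.53, against 0.26 over all 24541 genes tested, and 24 of the 29 tested Hox genes lay above that all-gene median. HoxA genes were the steadiest, with a median SD of 0.28, and in HoxD the spread was uneven: Hoxd10 to Hoxd13 had SDs of 1.28 to 1.64, but Hoxd4, Hoxd8 and Hoxd9 only 0.40 to 0.44, below the HoxB median of 0.58. Over the arrays well above background, the fold between the lowest and the highest mouse ran from 1.35 to 4.61 in HoxA, 3.04 to 14.6 in HoxB and 2.58 to 25.5 in HoxD. The SDs of Hoxd10 and Hoxd12 include values near background, since only 8 arrays were well above it for each. Over those arrays they spanned 2.69- and 2.80-fold, against 3.45-fold for Hoxd4, 2.74-fold for Hoxd8 and 25.5-fold for Hoxd13.

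Hoxa13 was the steadiest Hox gene and its 2 partners of the same number were not. Hoxa13, which patterns the hindgut, had a lowest, median and highest value of -0.76, -0.58 and -0.34 in 5-ASA mice and -0.77, -0.58 and -0.42 in Control mice, and -0.45, -0.48, -0.64 and -0.41 in Sham 1 to 4. All groups overlapped over its 1.35-fold range. A second Hoxa13 probe, also on all 16 arrays, lay between -2.28 and -1.75.

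Hoxb13, the marker of the distal colon, spanned 3.67-fold over the mice. It had a lowest, median and highest value of 5.39, 5.71 and 6.76 in 5-ASA mice and 5.21, 5.86 and 6.29 in Control mice, and it was 4.94 in Sham 1 but 6.32, 6.81 and 6.49 in Sham 2 to 4. The groups overlapped, and both the lowest and the highest of the 16 values were those of Sham mice. Among the 580 genes of a like mean level, 98.3% had a lower SD within groups.

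Hoxd13, which patterns the hind end of the gut and the limbs, spanned 25.5-fold. In 5-ASA mice its lowest, median and highest values were -1.78, -1.28 and -0.43, and in Control mice -3.52, -1.89 and -0.92. Sham 1 was at -5.11 and Sham 2 to 4 at -0.57, -0.82 and -0.52, so 1 Sham mouse was the lowest of all 16 and the other 3 were among the highest.

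Hoxd10, Hoxd11 and Hoxd12, the neighbours of Hoxd13 on the chromosome and like it posterior genes, followed the same mice. Hoxd11 ranged over -5.19, -3.86 and -2.08 (lowest, median, highest) in 5-ASA mice and -6.22, -3.56 and -2.77 in Control mice, with -5.90 in Sham 1 and -2.31, -2.49 and -2.31 in Sham 2 to 4. Hoxd12 ranged over -6.94, -4.99 and -3.35 in 5-ASA mice and -7.93, -5.52 and -4.33 in Control mice, and was -7.65, -3.38, -4.66 and -3.62 in Sham 1 to 4. Hoxd10 ranged over -6.52, -5.22 and -2.97 in 5-ASA mice and -7.24, -4.96 and -3.73 in Control mice, and was -5.97, -3.75, -3.62 and -3.67 in Sham 1 to 4.

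In each of these genes Sham 1 was the lowest Sham mouse, Control 1 the lowest Control mouse and 5-ASA 4 the highest 5-ASA mouse, and the groups overlapped. The low values lay near background, where only 8 arrays (Hoxd10, Hoxd12) or 12 arrays (Hoxd11) were well above it. A second Hoxd11 probe, well above background on 8 arrays, was lowest in Sham 1, at -7.06, and highest in 5-ASA 6, at -2.36.

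The genes Hoxb2 to Hoxb9 tended to be high in mice where Hoxd10 to Hoxd13 were low. Hoxb5, a factor of the gut wall that acts in enteric neuron development, had lowest, median and highest values of -0.93, -0.69 and -0.36 in 5-ASA mice and -2.52, -0.63 and -0.17 in Control mice, and 0.12, -0.70, -1.53 and -0.64 in Sham 1 to 4. Hoxb8 had -6.65, -3.40 and -2.87 in 5-ASA mice and -5.48, -3.73 and -3.12 in Control mice, and -1.61, -4.22, -4.12 and -4.68 in Sham 1 to 4. Sham 1 was thus the highest of the 16 mice for both, and the lowest were Control 4 for Hoxb5 and 5-ASA 4 for Hoxb8. In 5-ASA 4, Hoxb8 was not well above background.

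**Figure D2:**
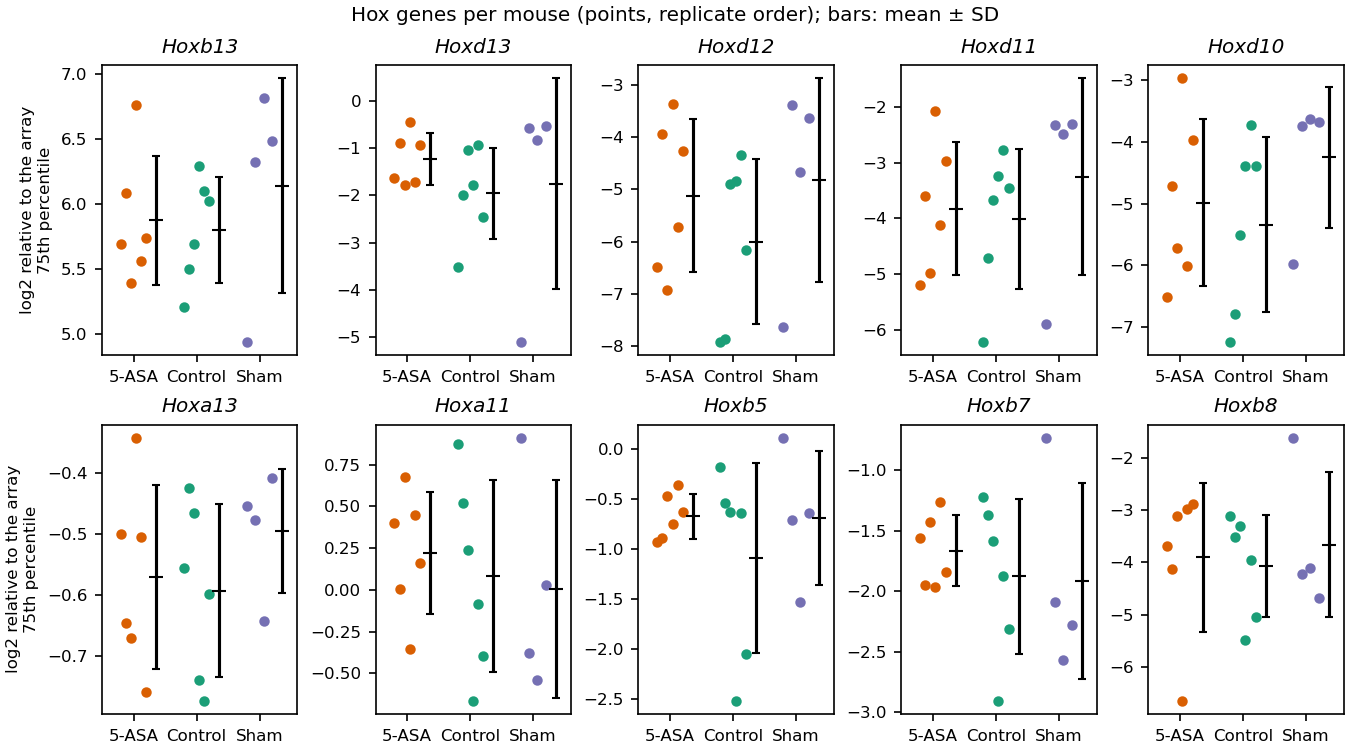
Log2 value relative to the 75th percentile of the array (vertical axes, different for each gene) of 10 Hox genes in 5-ASA, Control and Sham mice; points are mice in replicate order, and bars are the mean ± SD. The groups overlap for each gene, Sham 1 is low for Hoxb13 and Hoxd10 to Hoxd13 and high for Hoxb5, Hoxb7 and Hoxb8, and Hoxa13 spans 0.43 in all.

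Treatment with 5-ASA after DSS was set against DSS alone by 5-ASA against Control mice. None of the 29 tested Hox genes passed limma with Benjamini-Hochberg adjustment over all 24541 genes, where 0.0% of genes passed, and none had an unadjusted p under 0.05, against 4.1% of genes (1.43% higher and 2.67% lower). The groups overlapped for all 29, where 0.13% of genes did not overlap. By direction alone, 23 of 29 Hox genes were higher in 5-ASA mice, against 50% of all genes, with a median difference of 0.15 against 0.00 over all genes. This count was 9 of 29 within slide 1 and 25 of 29 within slide 2, and 16 of 29 without Control 4. In each cluster with more than 2 tested genes most members were on the higher side: 8 of 11 in HoxA, 8 of 9 in HoxB and 6 of 7 in HoxD.

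The differences were small beside the spread. Hoxa10, a posterior gene of the trunk and uterus, had the lowest p of the Hox genes and averaged 0.85 ± 0.09 in 5-ASA mice and 0.56 ± 0.38 in Control mice (SD, n = 6 each), a difference of 0.28 with a standard error of 0.16 (limma, adjusted p = 0.999). Hoxa5, which acts in lung and gut development, differed by 0.24, Hoxb4 by 0.29, Hoxb5 by 0.42 and Hoxc4 by 0.48. Among the genes numbered 13, Hoxd13 averaged -1.23 ± 0.56 in 5-ASA mice and -1.95 ± 0.97 in Control mice, a difference of 0.72 with a 95% interval of -0.75 to 2.19. Hoxb13 differed by 0.07 (interval -0.58 to 0.72) and Hoxa13 by 0.02 (-0.16 to 0.20). A second fit, limma with an intensity trend and robust variances, also called 0 Hox genes in each of the 3 comparisons.

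Hoxb5 and Hoxc4 differed in sign between slides. Within slide 1 the differences of Hoxb5 and Hoxc4 were -0.32 and -0.27, and within slide 2 that of Hoxb5 was 1.16; both mice lowest in Hoxb5, Control 4 and Control 6, lay on slide 2. All 10 smooth muscle markers and all 10 neuron and glia markers were also higher in 5-ASA mice, with median differences of 0.41 and 0.37, while the 10 markers of B cells all lay lower there (median -1.03), none of any list past the test; their part in the HoxB differences was not tested. The lists' levels in Control mice ran from -1.24 to 0.80 for smooth muscle, wider than the -0.00 to 0.45 of 5-ASA mice.

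DSS without 5-ASA was set against water alone by Control against Sham mice. None of the 29 Hox genes passed after adjustment (limma, lowest adjusted p 0.558), where 0.057% of all genes did. Unadjusted, 2 had a p under 0.05, Hoxd9 and Hoxd4, both lower, against 8.91% of all genes (5.48% higher and 3.43% lower). The groups overlapped for all 29, where 3.35% of genes did not overlap. By direction, 25 of 29 were lower in Control mice, where 50% of all genes were above 0; the median was -0.23. The number higher in Control mice, 4 of 29, was 8 without Sham 1 or without Control 4, and 2 without Control 1, Control 2 or Sham 4.

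The HoxD cluster stood lowest, with all 7 tested genes lower in Control mice and a median difference of -0.64, that of Hoxd9. Hoxd10 and Hoxd12 were well above background in only 3 and 2 of 6 Control mice, so their differences include values near background. Hoxd9, a posterior gene of limb and trunk, averaged -5.30 ± 0.46 in 6 Control mice and -4.66 ± 0.28 in 4 Sham mice (limma, difference -0.64, standard error 0.27, adjusted p = 0.558), and it was well above background on 4 Control arrays and 4 Sham arrays. Hoxd4, an anterior gene of the neck region of the axis, averaged -2.08 ± 0.49 in Control mice and -1.51 ± 0.26 in Sham mice, a difference of -0.57 (standard error 0.26).

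Other named genes of this comparison were Hoxa5 at -0.36 and Hoxb3 at -0.55, neither past the test. Hoxb13 differed by -0.34, Hoxa13 by -0.10 and Hoxd13 by -0.20. Sham 1 decided the value of Hoxd13: without that mouse the difference was -1.32 (limma, adjusted p = 0.413), and that of Hoxb13 was -0.74. With the row of arrays as a covariate Hoxd9 and Hoxd4 were at -0.50 and -0.32, and within slides they lay between -0.88 and -0.40 and between -0.58 and -0.57. The 10 smooth muscle and 10 neuron and glia markers were all lower in Control mice too, with medians of -0.34 each, and so were all 10 B cell markers, at -1.05, none past the test; their part in the Hox differences was not tested.

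DSS and 5-ASA together were set against water alone by 5-ASA against Sham mice. No Hox gene passed (lowest adjusted p 0.447 in limma), against 0.057% of all genes, and 1 gene, Hoxd4, was lower with an unadjusted p under 0.05, against 11.0% of all genes (6.06% higher and 4.95% lower). The groups overlapped for all 29, where 1.84% of genes did not overlap. Of 29, 18 were lower in 5-ASA mice, where 50% of all genes were above 0, and the median was -0.08. The number higher in 5-ASA mice, 11 of 29, was 6 within slide 1, 7 without Sham 3 and 17 with the row of arrays in the model. HoxD was again the lowest cluster, with 1 of 7 genes on the higher side and a median of -0.49. That median is the measured value of Hoxd9, which was well above background on 0 of 6 5-ASA arrays. Hoxd10 and Hoxd12 were so on 2 and 3 of these 6 arrays, all in row 2, so the cluster value rests in part on values near background. All 10 B cell markers were lower in 5-ASA mice (median -1.97, 8 with an unadjusted p under 0.05), and so were all 7 distal colon genes (median -0.37, 2 with such a p), none past the adjusted test; their part in the Hox differences was not tested.

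Hoxd4 averaged -2.07 ± 0.44 in 6 5-ASA mice and -1.51 ± 0.26 in 4 Sham mice (difference -0.56, limma standard error 0.26, adjusted p = 0.447). With the row of arrays in the model its difference was 0.19, and these groups shared no row. Hoxd9 had measured means of -5.15 in 5-ASA mice and -4.66 in Sham mice, but it was not well above background on any 5-ASA array and no fold is given. Hoxa2 differed by -0.31, Hoxb3 by -0.47 and Hoxa3 by -0.15. Hoxb13 differed by -0.27, Hoxa13 by -0.08 and Hoxd13 by 0.52; without Sham 1 the last was -0.59, and Hoxb13 was -0.67. All 3 comparisons share mice, so their directions are not independent of each other.

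**Figure D3:**
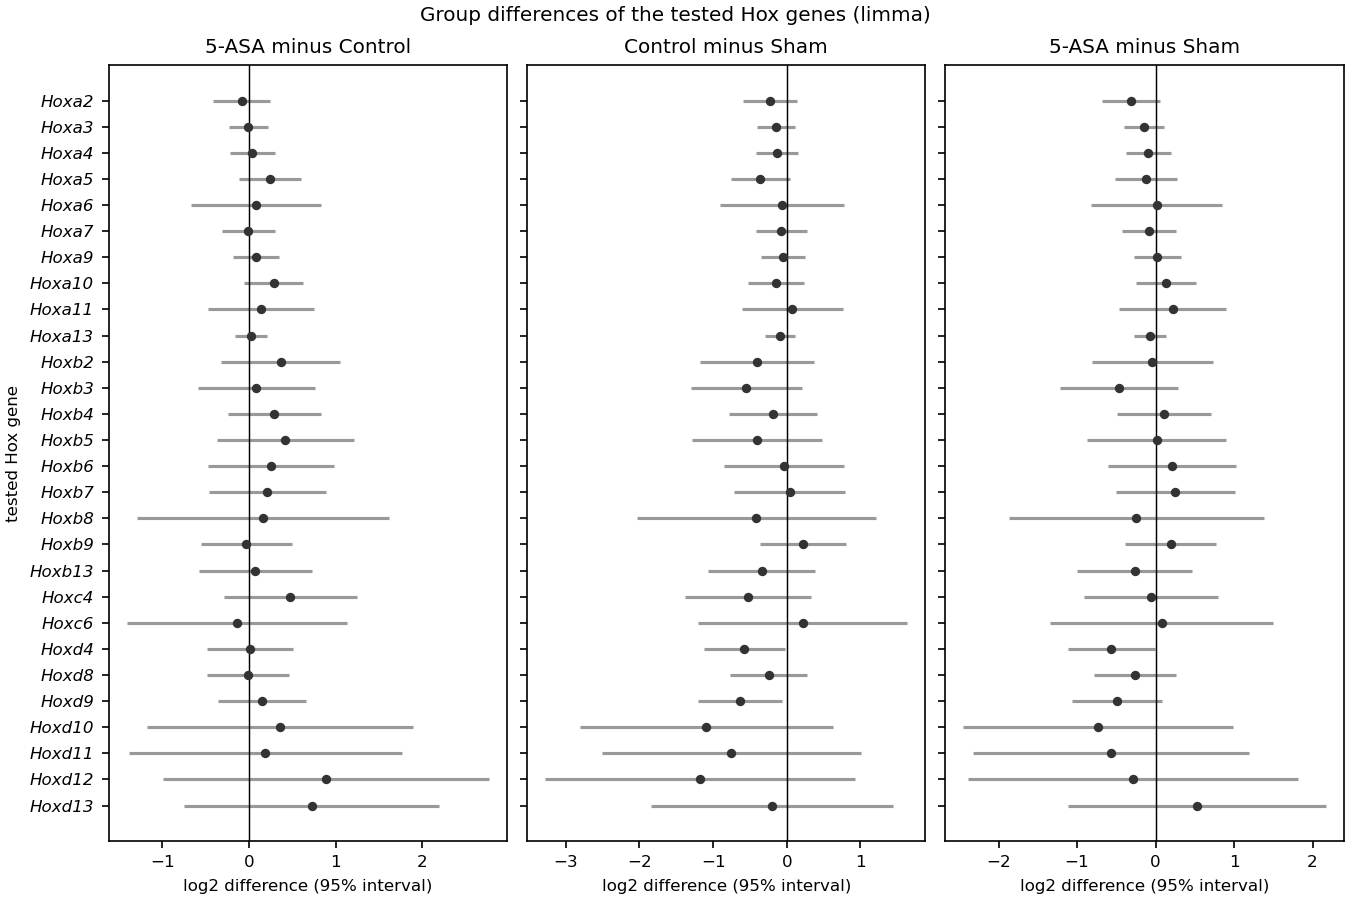
Log2 difference with its 95% interval (horizontal axes) of tested Hox genes for 5-ASA minus Control, Control minus Sham and 5-ASA minus Sham. The intervals of all genes shown cross 0 in the first panel; in the second, those of Hoxd4 and Hoxd9 do not, and in the third, that of Hoxd4 does not.

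No gene of the Hox partner and regulator lists passed in any comparison, nor did any other of the 144 genes tested of 180 listed (18 lists; lowest adjusted p in limma 0.999, 0.558 and 0.334 in the order of the comparisons above). Of the 8 tested genes of the Meis, Pbx and Pknox cofactor family, 8 were higher in 5-ASA than in Control mice, 1 was higher in Control than in Sham mice, and 4 were higher in 5-ASA than in Sham mice. Meis1 differed by 0.36, -0.24 and 0.13, and Meis2 by 0.29, -0.30 and -0.01. Cdx2, the caudal factor of intestinal epithelium, was at 4.47 in 5-ASA, 4.60 in Control and 3.98 in Sham mice, and Cdx1 at 6.36, 6.37 and 6.36. In the 22 tested Polycomb and trithorax genes, which silence and maintain Hox expression, the medians were -0.03, 0.01 and -0.01, and in the 14 retinoic acid genes 0.06, -0.04 and -0.04. The lowest p among these lists was that of Rara, a retinoic acid receptor, at -0.38 for Control minus Sham and -0.35 for 5-ASA minus Sham (limma, adjusted p = 0.558 and 0.340). Ezh2, the Polycomb methyltransferase, differed by 0.46 between 5-ASA and Sham mice (limma, adjusted p = 0.354). Of 10 listed noncoding RNAs of the Hox clusters, only Hoxa11os, antisense to Hoxa11, was tested, and it differed by 0.08, -0.30 and -0.22. Hoxd3os1 was on the array but did not pass the limit for testing, and the others had no probe under the listed symbol.

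The Hox genes were also compared with each other from mouse to mouse. Over the 16 mice, 406 pairs of tested Hox genes were correlated, and 126 of them (31.0%) had an adjusted p under 0.05 in a permutation test with 100000 resamples, 106 with a positive and 20 with a negative r. The smallest size of r among them was 0.595, which 31.3% of Hox pairs and 9.30% of all pairs of the 24471 genes without missing values reached. A positive r was found in 69.7% of Hox pairs and 50.9% of all pairs. These shares are a description. The pairs share the array and its 75th percentile, and genes are not independent of each other. Each Pearson r was also taken within slides and rows and without single pairs of mice.

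Hoxb13 and the genes Hoxd10 to Hoxd13 moved together across 2 clusters, while other posterior genes, such as Hoxa11 and Hoxa13, did not follow them. Hoxb13 lies on chromosome 11 and Hoxd10 to Hoxd13 on chromosome 2, yet all 10 pairs among these 5 genes were positive, with r between 0.65 and 0.93, and all 10 had an adjusted p under 0.05. These genes were grouped after their values were seen. Hoxb13 followed Hoxd11 with r = 0.90 (Spearman rho 0.94, permutation p = 1e-05, the smallest that the resamples can give, adjusted p = 0.000312), Hoxd10 with 0.85, Hoxd12 with 0.82 and Hoxd13 with 0.76. All 10 pairs stayed positive within each slide and each row, where r was at least 0.50.

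Hoxb13 and Hoxd13 can be read as an example. Their r was 0.76 (rho 0.81, permutation p = 0.00022, adjusted p = 0.00213), 0.89 within slide 1, 0.54 within slide 2, 0.90 in row 1 and 0.52 in row 2. Without Sham 1 and Control 1, the mice lowest in Hoxd11, it was 0.61, and without the 2 mice farthest from the median 0.70 (adjusted p = 0.0404). The third paralogue did not follow: Hoxa13 had r = -0.02 with Hoxb13 (rho -0.01, adjusted p = 0.960 in the permutation test) and -0.08 with Hoxd13, and none of its 28 pairs with other Hox genes had an adjusted p under 0.05. Hoxd9, next to Hoxd10 on the chromosome, had r = -0.11 with Hoxb13 and 0.15 with Hoxd10, but 0.85 with Hoxd4 and 0.80 with Hoxd8. Hoxd9 and Hoxd10 were well above background on 8 arrays each, those of Hoxd9 all in row 1. These r thus include values near background.

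The HoxB genes other than Hoxb13 moved together within their cluster. All 28 pairs among Hoxb2 to Hoxb9 were positive, with a median r of 0.77, and 20 had an adjusted p under 0.05. This set, which leaves out Hoxb13, was also formed after the values were seen, so its counts are a description. Hoxb4 and Hoxb5 had the highest r of all 406 pairs, 0.96 (rho 0.84, permutation p = 1e-05, adjusted p = 0.000312, 0.91 without the 2 mice farthest from the median). Hoxb2 and Hoxb5 had 0.96 (rho 0.80) and Hoxb6 and Hoxb7 0.94 (rho 0.95), both with the same adjusted p. Hoxb9 followed least, with r from 0.03 with Hoxb3 to 0.65 with Hoxb8.

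Between these sets, both formed after the values were seen, the sign was the opposite, and the counts are again a description. All 40 pairs of a gene from Hoxb2 to Hoxb9 with Hoxb13 or Hoxd10 to Hoxd13 were negative, with a median r of -0.52. Of these, 13 had an adjusted p under 0.05 in the permutation test. Hoxa11, a posterior HoxA gene, went with Hoxb7 and not with its HoxD namesake: its r was 0.93 with Hoxb7 and -0.85 with Hoxd11. The 3 lowest r of all were Hoxa11 with Hoxb13 at -0.90 (rho -0.89, permutation p = 1e-05, adjusted p = 0.000312), Hoxa11 with Hoxd11 at -0.85 (rho -0.79) and Hoxb13 with Hoxb7 at -0.85 (rho -0.89). Without the 2 mice farthest from the median these were -0.84, -0.76 and -0.76.

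The negative sign held less widely than the positive ones. Of the 40 pairs, 1 was positive within slide 1, 16 within slide 2 (median -0.08), 0 in row 1 and 6 in row 2. Without Sham 1 and Control 1, 5 were positive and the median was -0.32. Hoxa11 with Hoxb13 was negative in each of these settings, with r of -0.98 and -0.69 within slides 1 and 2, -0.92 and -0.85 in rows 1 and 2, and -0.84 without Sham 1 and Control 1.

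**Figure D4:**
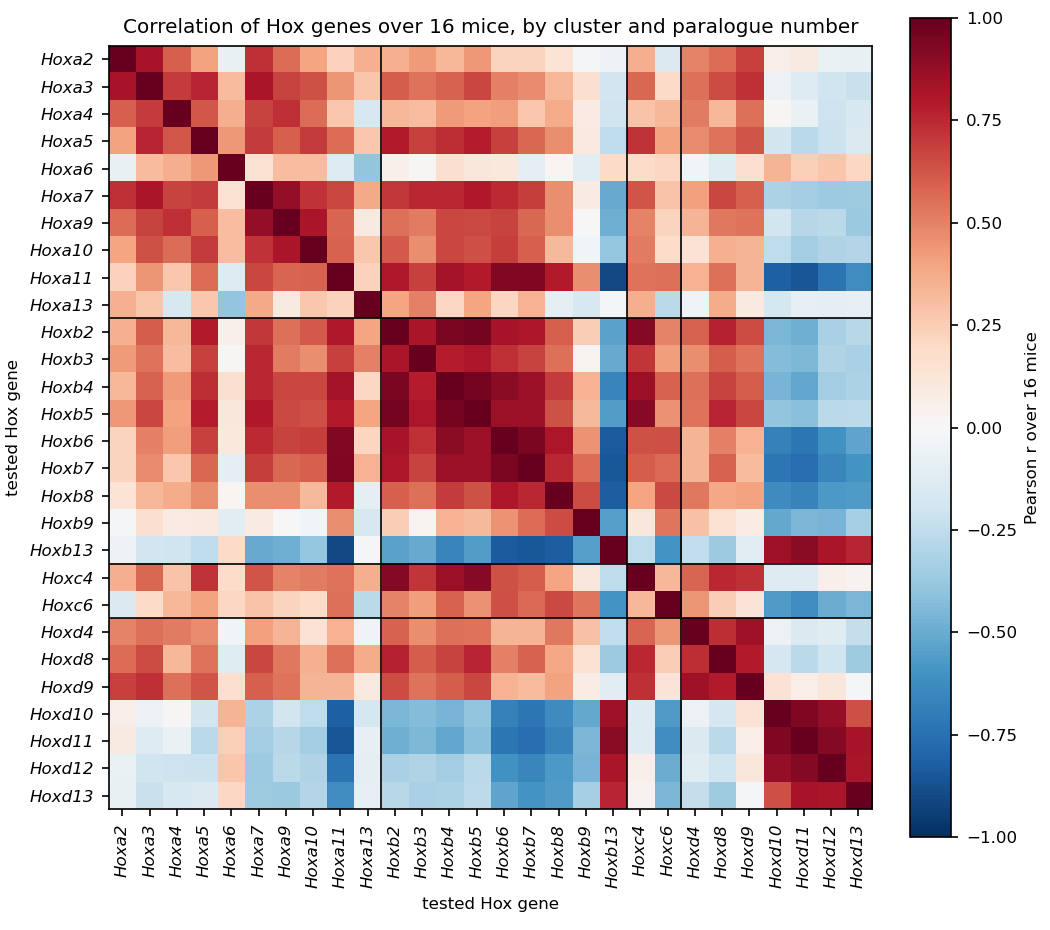
Pearson r over 16 mice (colour, from -1 in blue to 1 in red) for pairs of tested Hox genes, ordered by cluster and paralogue number, with black lines between clusters. Hoxb13 is red with Hoxd10 to Hoxd13 and blue with Hoxb6 to Hoxb8 and Hoxa11, while Hoxa13 is pale throughout.

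To see which other genes varied with these, Hoxb13 and Hoxb5 were each correlated with all 24470 other genes without missing values, and the listed genes were read from that test. Both genes, this test and the naming of the listed genes with the largest r were chosen after values were seen. For Hoxb13, 7.73% of all genes had an adjusted p under 0.05 in the permutation test, 4.56% with a positive and 3.17% with a negative r, and 46.6% had an r above 0. The 1891 genes behind this share were 1210 without Sham 1 and Control 1 and 465 without the 2 mice farthest from the median; within 8 mice the test called 0 in each slide, 25 in row 1 and 0 in row 2.

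Genes of the distal colon epithelium tended to be high in the mice where Hoxb13 was high. All 7 tested members had a positive r, and 3 had an adjusted p under 0.05. Atp12a, the colonic proton and potassium pump, had r = 0.93 with Hoxb13 (rho 0.92, permutation p = 1e-05, adjusted p = 0.00129). It was at -0.87, 0.77 and 3.71 (lowest, median, highest) in 5-ASA mice, -1.10, 0.70 and 3.37 in Control mice, and -1.89, 2.99, 3.69 and 2.48 in Sham 1 to 4. The highest 5-ASA mouse, 5-ASA 4, and the lowest Sham mouse, Sham 1, were also those of Hoxb13.

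The relation of Atp12a held in each setting, with r of 0.87 and 0.94 within slides 1 and 2, 0.97 and 0.85 in rows 1 and 2, and 0.90 without Sham 1 and Control 1. Insl5, a peptide hormone of the distal colon's endocrine cells, had r = 0.86 (rho 0.86, permutation p = 6e-05, adjusted p = 0.00378). Hsd11b2, which protects the mineralocorticoid receptor, had 0.71 (adjusted p = 0.0331 in the permutation test, 0.0651 without Sham 1 and Control 1). The other 4 members, Nr3c2, Scnn1b, Scnn1a and Slc6a14, had r between 0.37 and 0.60, none past the threshold.

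The lists of more proximal gut were mixed. Of 7 tested genes of proximal colon and cecum, 1 passed with a negative and 1 with a positive r, and of 5 of small intestine 2 passed with a negative and 1 with a positive r. Fabp2, a fatty acid carrier of absorbing enterocytes, had r = -0.85 with Hoxb13 (rho -0.84, permutation p = 1e-05, adjusted p = 0.00129), and Alpi, an alkaline phosphatase of the small intestine, had -0.89. Both were negative within each slide and row, with r of Fabp2 between -0.85 and -0.82. Cdx2 had r = -0.83 (rho -0.87, permutation p = 2e-05, adjusted p = 0.00193), and Muc2, the main mucin of goblet cells, had -0.82. Slc37a2 and Fabp6 stood in the lists of proximal colon and of small intestine but had a positive r, 0.92 and 0.81.

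Of the 13 tested genes of gut mesenchyme patterning, 1 had a positive and 2 a negative r with an adjusted p under 0.05. Six2, a homeobox gene of foregut and hindgut mesenchyme, had r = -0.90 (rho -0.92, permutation p = 1e-05, adjusted p = 0.00129), and Shh, the epithelial signal to that mesenchyme, had -0.84. All 10 smooth muscle and all 10 neuron and glia markers had a negative r with Hoxb13, 1 and 2 of them past the threshold. Of the 10 B cell markers, 9 had a positive r, 1 past it. The B cell list ran from -0.21 to 0.69 with a median of 0.63, beside a median of 0.60 for the 7 distal colon genes. The marker lists' part in the correlations of Hoxb13 was not tested; epithelial markers had r between -0.68 and 0.57, none past the threshold.

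Hoxb5 moved with markers of the muscle wall. Here 11.0% of all genes had an adjusted p under 0.05, 7.86% positive and 3.18% negative, and 55.1% had a positive r. The 2702 genes behind this share were 1063 without Sham 1 and Control 1, 1657 without Control 4 and Control 6, 469 and 0 within slides 1 and 2, and 2178 and 0 within rows 1 and 2. All 10 smooth muscle markers passed with a positive r (median 0.92), and so did all 10 markers of enteric neurons and glia (median 0.96). Prph, a filament protein of peripheral neurons, had r = 0.98 (rho 0.84), and Mylk, the smooth muscle myosin kinase, 0.95 (rho 0.82), both with an adjusted p of 0.000496 in the permutation test.

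The closest gene of the lists was the Hox cofactor Meis1. It had r = 0.99 with Hoxb5 (rho 0.90, permutation p = 1e-05, adjusted p = 0.000496), and it was at 0.86, 1.07 and 1.23 (lowest, median, highest) in 5-ASA mice, -0.30, 0.98 and 1.52 in Control mice, and 1.62, 0.85, 0.31 and 0.97 in Sham 1 to 4. Meis2 had r = 0.98, and 3 of the 8 tested cofactors passed. Within slides and rows the r of Meis1 lay between 0.94 and 0.99. Control 4 and Control 6 were the lowest in both genes, and without them it was 0.96.

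Other partners were genes of the gut wall. Rarb, a retinoic acid receptor, had r = 0.89 with Hoxb5 but a rho of 0.50 (permutation p = 0.051) and an adjusted p of 0.0827 without Control 4 and Control 6. Foxf2 and Foxf1, factors of gut mesenchyme under Hedgehog signals, had 0.89 and 0.81. None of the 7 distal colon genes had a positive r with Hoxb5, and none passed.

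The smooth muscle list varied between the same mice. Its level, averaged over the 10 markers after each was centred on its own mean of all mice, was highest in Sham 1 (0.92) and Control 1 (0.80) and lowest in Control 6 (-1.24) and Control 4 (-0.97). The first 2 mice are the lowest of their groups in Hoxb13 and Hoxd11 and the highest in Hoxb8, and the last 2 are the lowest in Hoxb5. Epithelial markers spanned only -0.13 to 0.10. Whether the muscle content of the piece or its place along the colon moved the Hox genes was not tested, since the labels record neither.

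**Figure D5:**
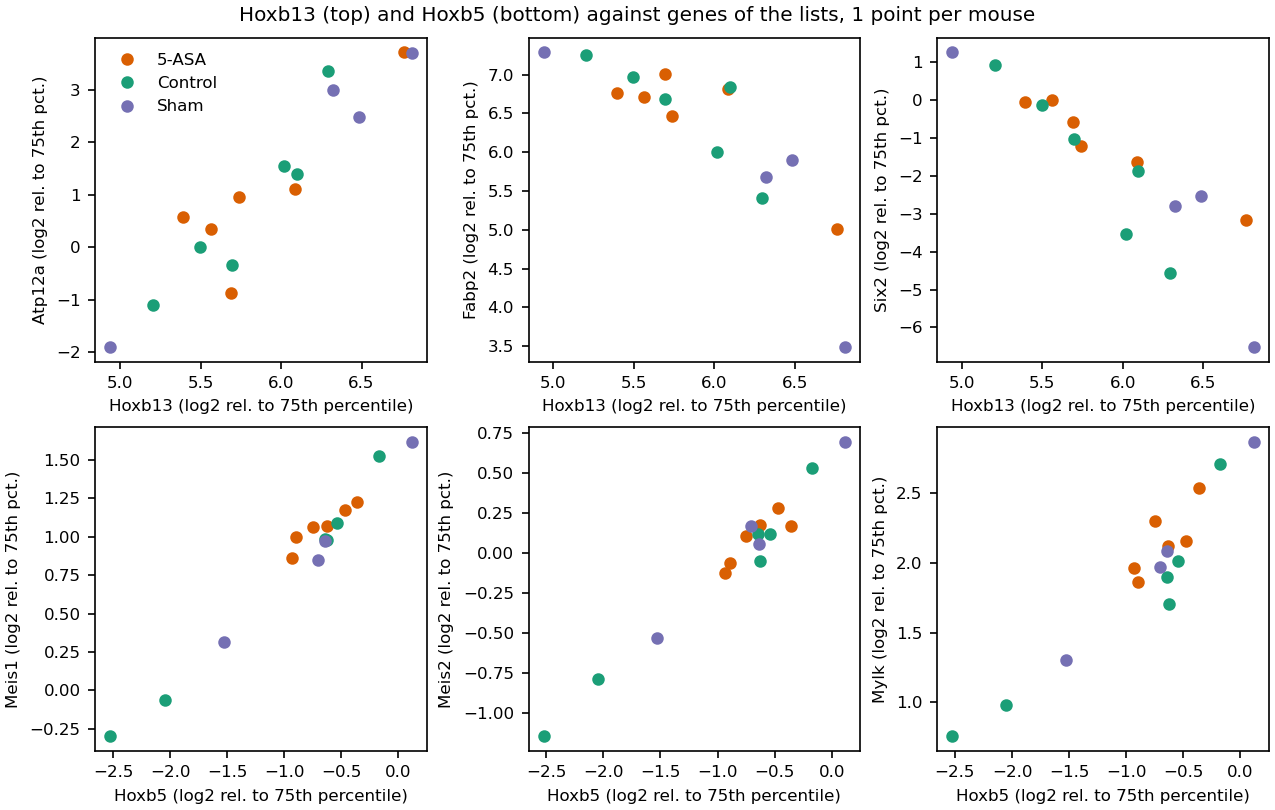
Hoxb13 (top row) and Hoxb5 (bottom row) on the horizontal axes against 3 listed genes each on the vertical axes, as log2 values relative to the 75th percentile of the array; each point is a mouse, coloured by group. Atp12a rises and Fabp2 and Six2 fall with Hoxb13, and Meis1, Meis2 and Mylk rise with Hoxb5, with 3 mice at the low end (Control 4, Control 6 and Sham 3).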

How the data were processed

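RNA of 16 colon samples (0.2 ug each, per the labels' protocols) was read with 1 dye on Agilent arrays of 62976 spots. The deposited scanner files hold intensity values that Feature Extraction 10.10.1.1 had corrected for background, per the file headers, with flags for spots well above background and saturated; probe positions are on mm9, per the file headers. The authors' deposited value table is on a log2 scale that its values match to log2 intensity minus the 75th percentile, centred on the Sham median; that scale and centring are inferred, not stated, and it served as an alternative.

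From the intensities, log2 minus each array's 75th percentile was taken, control spots were left out, spots of a probe were averaged, and a probe was kept if 4 or more of the 16 mice read it well above background. The brightest probe by mean stood for a gene, which left 24541 genes. Gene symbols are those of the array design, and 27656 probes were named through RefSeq accessions. Groups were compared in 1 fit of all 3 groups with limma 3.58.1 in R 4.3.3 and Benjamini-Hochberg adjustment over all genes at 0.05. Its p-values set a group difference against the spread between these mice. Correlations over mice used 100000 resamples (Python 3.11.15, NumPy 2.4.6, SciPy 1.17.1). The number of arrays limits the precision. Both were tested on simulated data.

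Per comparison the text names the 5 tested Hox genes with the smallest p and those numbered 13, and per correlation the 3 highest and 3 lowest pairs and those of number 13; of the other lists it gives counts and selected members. Some genes that these rules name are not reported here. The members and lists were chosen with earlier results of these data known. Alternatives changed the background correction, scaling, filter, probe, slide, row, spot position, model and mice.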

Additional observations from a re-analysis of the deposited data

Results flagged for a closer look

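In 87 sets of a Hox gene and a group, 7 held a mouse far from the others of its group, where chance gives about 1 in 20. The sets share mice and many Hox genes varied together, so the 87 sets are not independent and the count is a description. Sham 1 accounted for 3 of them: it lay at -5.97 for Hoxd10, -5.90 for Hoxd11 and -5.11 for Hoxd13, while the nearest Sham mouse lay at -3.75, -2.49 and -0.82. Sham 3 accounted for 2, with -2.89 for Hoxb3 (nearest -1.69) and -3.81 for Hoxc4 (nearest -2.78). 5-ASA 4 accounted for 2, with -6.65 for Hoxb8 (nearest -4.12) and -6.42 for Hoxc6 (nearest -4.92). Each of these mice was the lowest of its group. Hoxd10 and Hoxd11 in Sham 1, and Hoxb8 and Hoxc6 in 5-ASA 4, were not well above background. How low these values truly lay is thus not known.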

How the results depend on the processing

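No Hox gene passed in Control against Sham or 5-ASA against Sham mice under any of 31 settings, and none in 5-ASA against Control mice except without a filter on dim probes. That setting called 1, Hoxb1, well above background on 0 arrays (difference 0.75, limma adjusted p = 0.0383), and over all genes, 5-ASA vs Control, it gave 2953 calls in place of 0. The same comparison gave 1 call within slide 2 and 7 with row as a covariate. Control against Sham gave 14 calls, but 1 with the filter on all 16 arrays, 4 and 1 within slides 1 and 2, 0 without the outer 12 spot rows and 7 with only the groups compared. 5-ASA against Sham gave 14, but 2 with the all-array filter, 2 and 4 within the slides, 7 with row as a covariate and 0 without the outer spot rows. Leaving out 1 mouse at a time gave 0 to 0, 10 to 15 and 11 to 26 calls in these 3 comparisons, the last without 5-ASA 4, and 0 Hox genes. Called Hox pairs (126) fell to 47 and 3 within slides, 72 and 0 within rows (8 mice each), 52 without Sham 1 and Control 1 and 49 without the 2 mice farthest from the median. The alternatives without Sham 1 and Control 1 or Control 4 and Control 6, and all those for Hoxb13 and Hoxb5, were chosen after seeing the data. With the replicate number as a block, 0, 10 and 11 genes and 0 Hox genes were called (lowest Hox adjusted p in limma 0.921, 0.505 and 0.452). Deviations of same-numbered mice correlated between -0.21 and 0.61, which cannot settle whether the numbers pair them. The number of Hox genes on the higher side ran, over settings that tested 29, from 9 to 27, 2 to 8 and 6 to 17 in these comparisons (23, 4 and 11 as reported). Causes were not tested.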
